A study of Mus musculus with 2 samples.

Results

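Transcripts of the MHC and antigen presentation genes were examined in RNA-seq data of dentate gyrus (DG) astrocytes. The genes were chosen by symbol. They are all genes whose symbol starts with H2-, the mouse name of the MHC, together with B2m, Tap1, Tap2, Tapbp, Tapbpl, Psmb8, Psmb9, Psmb10, Psme1, Psme2, Cd74, Ciita, Nlrc5, Erap1 and Cd1d1. Of 16302 genes listed in either library, 30 met this rule. Among them were 6 genes of class I heavy chains, 10 genes that supply and load class I peptides, 9 genes of the class II pathway, B2m, Nlrc5, Cd1d1, and 2 genes, H2-Ke2 and H2-Ke6, that carry the prefix for their position but encode no MHC molecule. The libraries came from primary astrocytes grown from the DG of adult wild-type mice (WT) and of mice that lack β-arrestin 1 in all cells (β-arr1 KO, or KO), both of the strain C57BL/6 in the labels. The KO line had been backcrossed onto C57BL/6J, and the animals were either littermates or descendants of homozygous WT and KO lines bred apart. The cells were plated from whole DG tissue, kept in medium with serum and shaken before use, a step meant to remove dividing cells, neurons and precursors of oligodendrocytes, and the labels call the cDNA of each genotype pooled. A single library was sequenced for each genotype, so that no value below has an error between replicates and no difference between genotypes could be tested.

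MHC class I molecules sit on the surface of nearly all nucleated cells and show peptides from the cell's own proteins to CD8 T cells. A heavy chain pairs with the light chain β2-microglobulin. The peptide is cut by the proteasome, carried into the endoplasmic reticulum by the transporter TAP and fitted into the groove with the help of tapasin. MHC class II molecules are made mainly by professional antigen-presenting cells, take peptides that were cut in lysosomes, and are shown to CD4 T cells. In the brain, class II is known above all from microglia and macrophages, and both classes are raised by interferon-γ in glia, astrocytes included.

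Expression was deposited as FPKM, fragments scaled for the length of the transcript and for the mapped fragments of the library, which allows levels of different genes to be set side by side. The targeted gene Arrb1 was at 7.62 FPKM in WT against 2.72 FPKM in KO, with a ratio of 0.358 (95% interval 0.301 to 0.424). Fragment numbers are not columns of these tables and were estimated from the steps in which low FPKM values fall, at 9.54 M fragments in WT and 9.82 M in KO. Every interval given here is an exact (Clopper-Pearson) 95% interval built on these estimates and covers counting error only. The astrocyte marker Gfap was at 189 FPKM in WT against 192 FPKM in KO. The Y-linked genes Ddx3y (2.47 FPKM), Eif2s3y (4.53 FPKM), Uty (0.811 FPKM) and Kdm5d (0.635 FPKM) were listed in β-arr1 KO only, so that genotype and the sex of the pooled animals cannot be told apart in any comparison below.

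What a class I value stands for has to be settled first, because class I genes resemble each other and lie in rows along chromosome 17. The coding sequences of H2-D1, H2-K1 and H2-Q7 hold an identical stretch of 91 bases within the part that encodes the α3 domain, the conserved domain bound by CD8. It is shown with the same stretch of H2-T23 and H2-M3, from the NCBIM37 (mm9) transcripts, and capitals mark bases that differ from H2-D1.
H2-D1: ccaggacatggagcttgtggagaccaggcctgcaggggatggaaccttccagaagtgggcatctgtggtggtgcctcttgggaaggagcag
H2-K1: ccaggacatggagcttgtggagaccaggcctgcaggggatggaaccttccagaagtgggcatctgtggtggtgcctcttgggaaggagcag
H2-Q7: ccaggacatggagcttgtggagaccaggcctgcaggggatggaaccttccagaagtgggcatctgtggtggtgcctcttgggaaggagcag
H2-T23: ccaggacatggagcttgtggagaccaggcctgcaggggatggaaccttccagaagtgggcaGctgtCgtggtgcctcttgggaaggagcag
H2-M3: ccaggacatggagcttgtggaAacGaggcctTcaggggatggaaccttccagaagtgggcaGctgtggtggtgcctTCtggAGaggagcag
The stretch of H2-T23 differed at 2 bases and that of the more distant H2-M3 at 8 bases. Over whole transcripts, 4.64% of the 100-base windows of H2-D1 occurred unchanged in another gene, and the share was 13.1% for H2-T22, 0% for H2-K1 and 0% for H2-M3.

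Several deposited rows ran over more than 1 gene. The row named H2-D1 covered chr17:35400039-35611508 (mm9, plus strand), 211 kb in each library, and so ran over the annotated genes H2-Q2, H2-Q4, H2-Q6, H2-Q7, H2-Q8 and H2-Q10. The row named H2-T22 covered chr17:36140900-36305482 on the minus strand in WT and ran over H2-T24, H2-T23, H2-Bl, H2-T10 and H2-T9. In β-arr1 KO it was shorter (116 kb against 165 kb) and stopped before H2-T9. The row named H2-K1 (chr17:34111604-34137278, minus strand) also held H2-K2. Of 41 H2- symbols in the annotation, 15 were listed under their own name, 13 lay inside a listed row and 13 were neither. A value printed for H2-D1 or H2-T22 is therefore that of a row over several class I genes, and the genes inside it cannot be told apart.

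**Figure D1:**
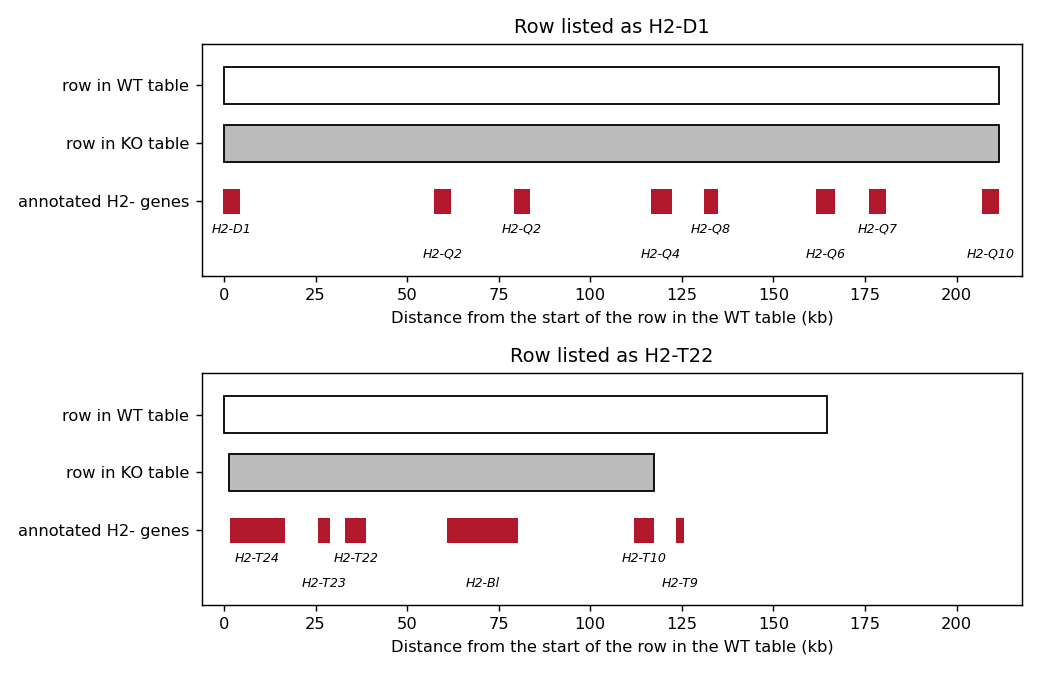
Extent of the rows named H2-D1 (top) and H2-T22 (bottom) in the WT table (white bar) and the β-arr1 KO table (grey bar), with annotated H2- genes as red blocks. The x axis is the distance in kb from the start of the row in the WT table. The H2-D1 row spans 211 kb in each library, and the H2-T22 row spans 165 kb in WT and 116 kb in β-arr1 KO.

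The promoters of the classical class I genes share short elements. In the 250 bases before the start, H2-D1 and H2-K1 each held the enhancer A palindrome, known as a site of NF-κB, and a few bases after it an interferon-stimulated response element of class I genes. They are the first and the second run of capitals in the sequences of H2-D1 and H2-K1 printed here, and both strands were searched for exactly these letters. The enhancer A letters were found in 9 of 27025 genes (0.0333%) and the letters of the second element in 34 genes (0.126%), among these also H2-M3. These 2 elements were added to the search after the sequences had been read. The sequences are RefSeq promoters of GRCm38.p6, a later build than that of the tables, and capitals mark the elements named here and the Y box core CCAAT, or its reverse complement.
H2-D1 (chr17:35262844-35263093, plus strand): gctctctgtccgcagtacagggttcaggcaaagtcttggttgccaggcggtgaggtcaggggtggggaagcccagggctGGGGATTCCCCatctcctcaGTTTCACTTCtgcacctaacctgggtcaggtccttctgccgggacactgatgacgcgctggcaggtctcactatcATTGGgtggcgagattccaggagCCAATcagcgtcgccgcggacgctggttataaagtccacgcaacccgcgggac
H2-K1 (chr17:34000348-34000597, minus strand): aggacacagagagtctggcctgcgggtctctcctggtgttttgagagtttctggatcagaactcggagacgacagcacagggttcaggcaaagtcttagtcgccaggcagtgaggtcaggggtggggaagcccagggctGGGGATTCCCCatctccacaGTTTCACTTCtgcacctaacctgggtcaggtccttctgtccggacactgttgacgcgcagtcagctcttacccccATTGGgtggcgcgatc
B2m (chr2:122147437-122147686, plus strand): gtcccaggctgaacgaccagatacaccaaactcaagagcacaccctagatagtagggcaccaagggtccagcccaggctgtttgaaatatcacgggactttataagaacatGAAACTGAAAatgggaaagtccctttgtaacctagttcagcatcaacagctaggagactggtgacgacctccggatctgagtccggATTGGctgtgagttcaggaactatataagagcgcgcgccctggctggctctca
In B2m, the capitals mark an interferon response core (GAAA, any 2 bases, GAAA), which starts 139 bases before the transcript, and CCAAT. The core was found in B2m and H2-T22 among the 22 of the 30 genes with a promoter sequence, and in 3.46% of all genes. CCAAT, the site of NF-Y, was found in 17 of these 22 genes and in 37.5% of all genes, and the interferon-γ activation element (TTC, any 3 bases, GAA) in H2-M3 and Psmb8 and in 8.13% of all genes. A match is a description of the letters and not a measured site.

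Of the 30 genes, 26 were listed in both libraries, 1 in WT only and 3 in β-arr1 KO only. The genes listed once were H2-M10.2 (0.128 FPKM in WT), H2-M2 (0.0750 FPKM in β-arr1 KO), H2-Eb2 (0.0318 FPKM in β-arr1 KO) and Erap1, and a gene that is not listed is at 0 in the table or part of another row. In all, 23 genes reached 1 FPKM in either library, were listed in both and could be compared. With the limits of 3/2 and 2/3 on the KO/WT ratio, which are those of the study, 3 genes were below 2/3 (H2-D1, Cd1d1 and Nlrc5), 1 was above 3/2 (H2-Eb1) and 19 were within. Over all 12171 genes compared in the same way, 14.6% were past a limit, with 7.9% above and 6.74% below, and the share of antigen presentation genes past a limit was near this background. The direction was less even. The ratio was below 1 in 16 of the 23 genes, against 46.9% of all genes, and the median log2 ratio was -0.21, against 0.02 over all genes. For 11 genes the counting interval left out 1, and 10 of these were lower in β-arr1 KO and 1, B2m, was higher. Over all 11838 genes with an interval, 40.9% left out 1, with 18.5% lower and 22.4% higher in KO. When the interval had to leave out 1 with the shortest coding transcript too, the number fell to 6 genes (B2m, Cd1d1, H2-D1, H2-DMb1, H2-K1 and H2-T22), against 27.0% of all genes.

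**Figure D2:**
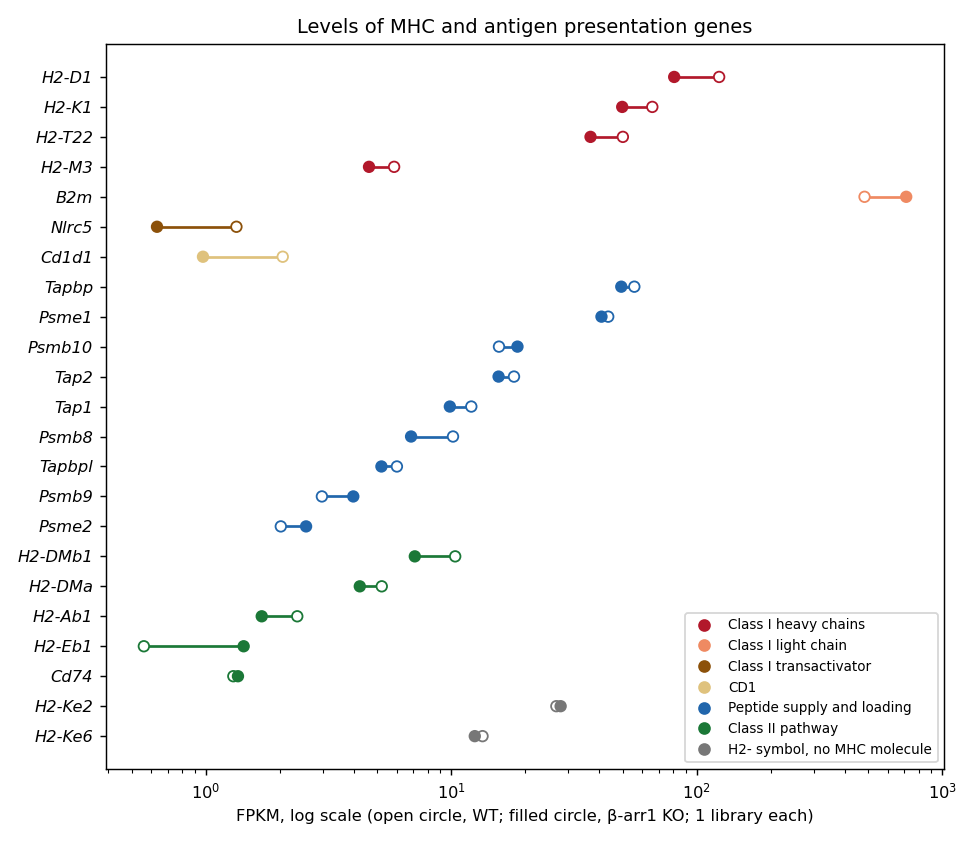
FPKM of the 23 genes with 1 FPKM or more in either library, on a log axis, with WT as open and β-arr1 KO as filled circles and colors for the gene groups. The class I heavy chains sit left of their WT value in β-arr1 KO, B2m is the highest gene and sits to the right, and no class II gene exceeds 10.4 FPKM.

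The 4 class I heavy chain rows at 1 FPKM or more were all lower in β-arr1 KO. H2-D1, a classical heavy chain, was at 123 FPKM in WT against 80.9 FPKM in KO, which made it the most abundant heavy chain row in both libraries. Its ratio was 0.656 (95% interval 0.614 to 0.700), just past the limit of 2/3. H2-K1, the other classical heavy chain of this strain, was at 65.9 FPKM in WT against 49.7 FPKM in KO, a ratio of 0.754 (0.688 to 0.826). The interval of H2-K1 lay below 1, and the ratio was within the limits.

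The non-classical heavy chains were lower as well. The row of H2-T22, whose product is a ligand of γδ T cells, was at 50.0 FPKM in WT against 36.9 FPKM in KO, a ratio of 0.738 (0.681 to 0.801). H2-M3, which presents formylated peptides of bacteria, was at 5.85 FPKM in WT against 4.62 FPKM in KO, and its ratio of 0.790 had an interval that included 1 (0.549 to 1.13). The other 2 heavy chain genes, H2-M2 and H2-M10.2, were listed once each at about 1 fragment. Summed over the heavy chains, FPKM was 245 in WT against 172 in KO, a ratio of 0.702 (0.672 to 0.734), and the median log2 ratio of the 4 genes was -0.42. H2-D1 made up 50.3% of the sum in WT and 47.0% in β-arr1 KO. In bulk RNA, fewer cells that express a gene and less RNA per cell cannot be told apart. The H2-T22 row had different bounds in the 2 libraries, and its ratio was 0.806 when the rows it overlaps were added.

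The light chain went the other way from the heavy chains. B2m (chr2:121973423-121978818 in β-arr1 KO, plus strand), which encodes β2-microglobulin, was at 482 FPKM in WT against 712 FPKM in KO, a ratio of 1.48 (1.41 to 1.55). It stayed within the limit of 3/2, and the interval lay above 1. B2m ranked 74 by FPKM in WT and 41 in β-arr1 KO. The level of B2m divided by the summed heavy chains was 1.97 in WT and 4.14 in β-arr1 KO. In WT the row of B2m reached over the neighboring gene Trim69, to position 122004763, which in β-arr1 KO was a row of its own at 0.0641 FPKM, so that the length behind the 2 values of B2m may differ.

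Nlrc5, which encodes the transactivator of class I genes, was low in both libraries, at 1.33 FPKM in WT against 0.633 FPKM in KO. Its ratio of 0.475 (0.320 to 0.695) was below 2/3. The WT row started at position 96969977 of chromosome 8 and the KO row at 96996663, and with the shortest coding transcript of the gene in place of the longest the interval widened to 0.0768 to 2.22. Cd1d1, whose product resembles a class I heavy chain, pairs with β2-microglobulin and presents lipids to NKT cells, was at 2.06 FPKM in WT against 0.974 FPKM in KO. About 35 and 17 fragments stood behind these values, and the ratio was 0.473 (0.249 to 0.868). Of the 100-base windows of Cd1d1, 14.6% occurred also in Cd1d2, which was listed at 0.0977 FPKM in WT against 0.0947 FPKM in KO.

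Genes that make and load class I peptides were mixed in direction. Of the 9 that could be compared, none passed a limit, 6 were lower and 3 were higher in β-arr1 KO, and the median log2 ratio was -0.18. Summed over all 10 genes, FPKM was 166 in WT against 159 in KO, a ratio of 0.957 with an interval that included 1. The KO sum holds 6.15 FPKM of Erap1, which was not listed in WT, so that the ratio of the 9 compared genes alone is lower.

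The immunoproteasome subunits, which replace the constitutive catalytic subunits under interferon-γ, differed in direction. Psmb8 was at 10.2 FPKM in WT against 6.86 FPKM in KO, a ratio of 0.675 (0.528 to 0.860) close to the limit of 2/3. Psmb9 was at 2.97 FPKM in WT against 3.99 FPKM in KO, a ratio of 1.34 with an interval of 0.991 to 1.82. Psmb10 was at 15.6 FPKM in WT against 18.6 FPKM in KO, a ratio of 1.19 (0.963 to 1.47). Only Psmb8 of these 3 had an interval without 1, and the summed FPKM of the 3 genes was 28.8 and 29.4, a ratio of 1.02 (0.891 to 1.18). The sum was carried by Psmb10, and without it the ratio was 0.826, on the other side of 1.

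The constitutive counterparts were far more abundant. Psmb5, which Psmb8 replaces, was at 71.1 FPKM in WT against 73.6 FPKM in KO, so that Psmb8 made up 12.5% of this pair in WT and 8.53% in β-arr1 KO. Psmb6, the counterpart of Psmb9, was at 100.4 FPKM in WT against 101 FPKM in KO, and Psmb9 made up 2.87% and 3.78% of that pair. Psmb7, the counterpart of Psmb10, was at 115 FPKM in WT against 133 FPKM in KO, and Psmb10 made up 12% and 12.3%. Both libraries thus held mostly transcripts of the constitutive catalytic subunits. Of the PA28 activator, which opens the proteasome, Psme1 was at 43.6 FPKM in WT against 40.9 FPKM in KO (ratio 0.939, 0.847 to 1.04) and Psme2 at 2.02 FPKM in WT against 2.56 FPKM in KO (ratio 1.27, 0.617 to 2.66). For Psme2, 44.5% of the 100-base windows occurred also in the pseudogene Psme2b-ps, and its value is uncertain for that reason.

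The peptide loading genes Tapbp, Tap2, Tap1 and Tapbpl were each a little lower in β-arr1 KO when only their own rows were compared. Tapbp, which encodes tapasin, was the highest of them at 55.6 FPKM in WT against 49.2 FPKM in KO, a ratio of 0.885 (0.820 to 0.954). The transporter subunits followed, with Tap2 at 18.0 FPKM in WT against 15.6 FPKM in KO (ratio 0.865, 0.766 to 0.978) and Tap1 at 12.1 FPKM in WT against 9.86 FPKM in KO (ratio 0.818, 0.709 to 0.943). Tap1 and Psmb9 lie head to head, and their 250-base promoters overlap over most of their length (chr17:34187306-34187555 and chr17:34187331-34187580, GRCm38.p6), while their ratios stood on opposite sides of 1. Tapbpl, whose product TAPBPR edits peptides like tapasin, was at 6.00 FPKM in WT against 5.19 FPKM in KO, a ratio of 0.865 (0.664 to 1.13). The row of its neighbor Vamp1 ended before Tapbpl in WT (0.774 FPKM) and ran across it in KO (4.75 FPKM). With all overlapping rows of this stretch added in each library, among them E130112N10Rik (1.15 FPKM, listed in WT only) and Cd27, the ratio was 1.20. With the shortest coding transcript, the intervals of Tap1, Tap2, Tapbp, Nlrc5 and Psmb8 included 1.

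Erap1, the aminopeptidase that trims peptides in the endoplasmic reticulum, was listed in β-arr1 KO only, at 6.15 FPKM (chr13:74777320-74829323, plus strand). In WT a part of this stretch was overlapped by the row of the neighboring gene Cast, at 66.2 FPKM. In β-arr1 KO, Cast and Erap1 together were at 58.7 FPKM, a ratio of 0.887 to the row in WT. No ratio is given for Erap1 alone.

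**Figure D3:**
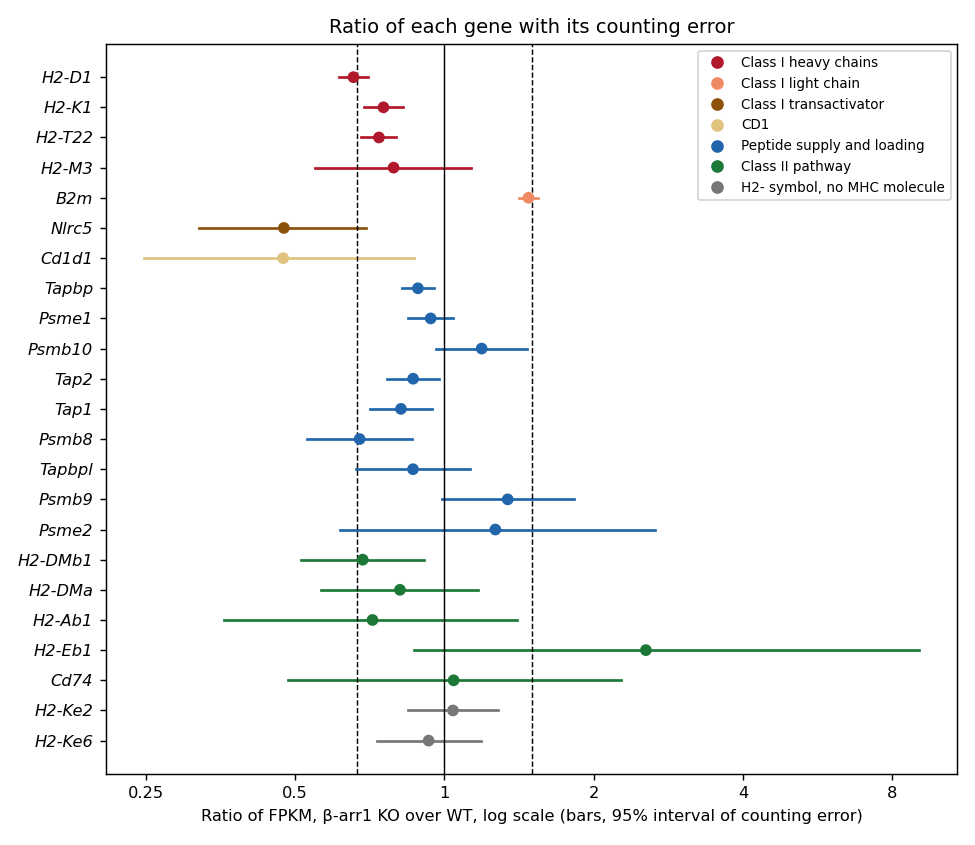
Ratio of FPKM, β-arr1 KO over WT, on a log axis for the 23 genes, with bars for the exact 95% interval of counting error, a solid line at 1 and dashed lines at 2/3 and 3/2. The intervals of H2-D1, H2-K1 and H2-T22 lie left of 1 and that of B2m right of 1, and the intervals of H2-Eb1, H2-Ab1 and Cd74 are wide and include 1.

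Class II transcripts were scarce in both libraries. The invariant chain Cd74, which is among the most abundant transcripts of professional antigen-presenting cells, was at only 1.29 FPKM in WT against 1.35 FPKM in KO, or about 15 and 16 fragments, a ratio of 1.04 (0.484 to 2.27). H2-Ab1, which encodes the β chain of the classical class II molecule I-A, was at 2.36 FPKM in WT against 1.69 FPKM in KO, a ratio of 0.717 (0.359 to 1.40). Its partner H2-Aa was at 0.117 FPKM in WT against 0.113 FPKM in KO, about 1 fragment in each library, and the annotation of H2-Aa reaches into the H2-Ab1 row on the opposite strand. H2-Eb1, the β chain of I-E, whose α chain gene is a pseudogene in the annotation (H2-Ea-ps, not listed), was at 0.560 FPKM in WT against 1.43 FPKM in KO, and its ratio of 2.55 passed the limit of 3/2. This rested on about 5 and 14 fragments, and the interval of 0.868 to 9.04 included 1.

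The genes of H2-DM, a non-classical class II molecule that acts as a peptide exchange factor, were the highest of the class. The row of H2-DMb1 (chr17:34282361-34297174, plus strand), which also held H2-DMb2, was at 10.4 FPKM in WT against 7.10 FPKM in KO. Its ratio of 0.685 had an interval below 1 (0.513 to 0.910) and was within the limits. H2-DMa was at 5.21 FPKM in WT against 4.24 FPKM in KO, a ratio of 0.814 (0.564 to 1.17). The class II transactivator Ciita, at 0.128 FPKM in WT against 0.332 FPKM in KO, and H2-Ob, at 0.168 FPKM in WT against 0.245 FPKM in KO, were below the minimum. Of the 5 class II genes that could be compared, 3 were lower and 2 higher in β-arr1 KO, 1 was above 3/2 and none below 2/3, and the median log2 ratio was -0.29. The direction of this median turned with the minimum, since it was 0.02 at a minimum of 0.1 FPKM. Summed over the class II chain genes, FPKM was 18.8 in WT against 14.8 in KO, a ratio of 0.790 (0.646 to 0.966), and without the row of H2-DMb1 the ratio was 0.921. The class I heavy chains thus stood 13.0 times as high as the class II chains in WT and 11.6 times as high in β-arr1 KO.

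The 2 genes with an H2- symbol and no MHC product lie among the class I and class II genes. H2-Ke2 (chr17:34075854-34077288), a prefoldin subunit also called Pfdn6, was at 26.8 FPKM in WT against 27.9 FPKM in KO, a ratio of 1.04 (0.845 to 1.28). H2-Ke6 (chr17:34162978-34165000), a hydroxysteroid dehydrogenase also called Hsd17b8, was at 13.4 FPKM in WT against 12.5 FPKM in KO, a ratio of 0.930 (0.731 to 1.18). Both intervals included 1.

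**Figure D4:**
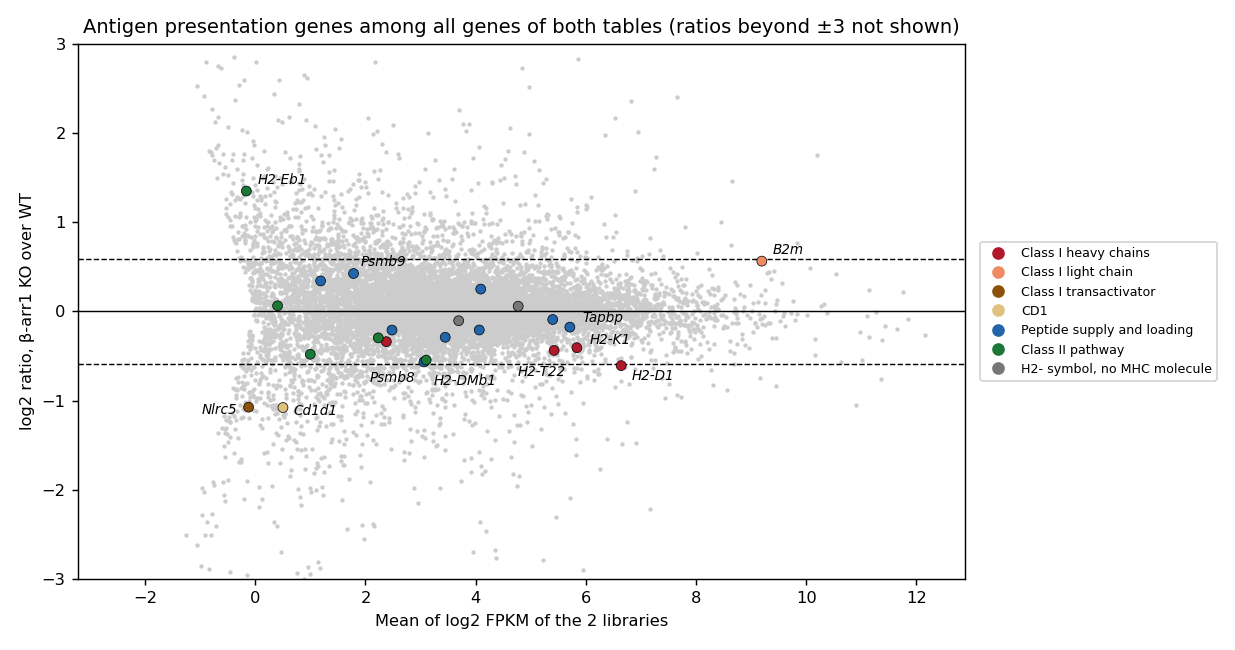
Log2 ratio of β-arr1 KO over WT against the mean log2 FPKM of the 2 libraries for the genes with 1 FPKM or more in either library (grey, ratios beyond 3 on the log2 scale not drawn) and for the antigen presentation genes (colored by group), with dashed lines at the limits. H2-D1, H2-K1 and H2-T22 lie below 0 at high FPKM, B2m lies just under the upper limit, and H2-Eb1, Nlrc5 and Cd1d1 lie at low FPKM, where all genes spread widely.

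The share of genes past a limit depended on the level. Among all genes whose higher value of both libraries was 1 to 5 FPKM it was 28.2%, at 5 to 20 FPKM 11%, at 20 to 100 FPKM 8.92% and from 100 FPKM upward 9.67%. Of 7 antigen presentation genes in the lowest of these bands, 3 were past a limit (Nlrc5, Cd1d1 and H2-Eb1). In the next bands, none of 9 genes and none of 5 genes were past a limit. Of the 2 genes in the highest band, H2-D1 was past a limit and B2m was not.

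A further 54 genes of antigen presentation were looked at for comparison, of which 52 were listed and 50 could be compared. Among these, 32 were lower in β-arr1 KO, against 46.9% of all genes, and the median log2 ratio was -0.07. Of the 50 genes, 3 were below 2/3 and 1 was above 3/2. This was a smaller share than the 14.6% of all genes past a limit. The genes that handle class II peptides in lysosomes were lower in 6 of 6 cases, with a summed ratio of 0.751 (0.745 to 0.757). Most of this sum came from Ctsd (2955 FPKM in WT against 2374 FPKM in KO) and Ctsb (1356 FPKM in WT against 968 FPKM in KO). The protease Ctsl, at 516 FPKM in WT against 279.8 FPKM in KO, had a ratio of 0.542 (0.524 to 0.561) and was below the limit, and its row had different bounds in the 2 libraries. Cathepsin S (Ctss), which cuts the invariant chain in microglia and macrophages, was at 167 FPKM in WT against 122 FPKM in KO, a ratio of 0.726 (0.678 to 0.779) within the limits.

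The other genes past a limit belonged to several groups. Nfyc, a subunit of the CCAAT-binding factor NF-Y, was at 13.8 FPKM in WT against 8.45 FPKM in KO, a ratio of 0.612 (0.497 to 0.753). The other NF-Y subunits were within the limits, Nfya at 0.930 and Nfyb at 0.953. Ulbp1, a ligand of the receptor NKG2D, was at 8.39 FPKM in WT against 5.31 FPKM in KO (ratio 0.632), with different bounds in the 2 libraries. Cd86, a co-stimulatory ligand of T cells, was at 0.973 FPKM in WT against 1.72 FPKM in KO, a ratio of 1.77 (1.03 to 3.12). Its relative Cd80 was at 23.1 FPKM in WT against 16.3 FPKM in KO, a ratio of 0.705 (0.610 to 0.813) within the limits and in the other direction. With the shortest coding transcript, the intervals of Nfyc (0.297 to 1.23) and Cd86 (0.474 to 8.02) included 1.

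Genes of the interferon-γ pathway were lower in 6 of 8 cases, none of them past a limit, with a median log2 ratio of -0.13. Irf1, a transcription factor that acts on class I promoters, was at 7.83 FPKM in WT against 5.69 FPKM in KO, a ratio of 0.727 (0.563 to 0.938, or 0.381 to 1.37 with the shortest coding transcript). The receptor genes were closer to 1, with Ifngr1 at 0.948 (0.819 to 1.10) and Ifngr2 at 1.07 (0.972 to 1.17). The chaperones of class I folding were lower in 4 of 5 cases, by less than the heavy chains (summed ratio 0.920, 0.907 to 0.933). A list of peptidases, cytosolic except for the membrane-bound Lnpep, was higher in 5 of 6 cases, with a summed ratio of 1.07 (1.03 to 1.11). The remaining lists were the regulators of class II transcription (5 of 7 lower), molecules that resemble class I (5 of 6 lower), co-stimulation (2 of 4 lower), the ubiquitin ligases of MHC molecules (2 of 3 lower) and the activators Psme3 and Psme4 (1 of 2 lower).

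Markers of other cell types moved as well. Of 16 markers of microglia and macrophages, all listed in both libraries, 15 were lower in β-arr1 KO and 1, Cd68 (0.645), was below 2/3. Their summed FPKM was 1930 in WT against 1460 in KO, a ratio of 0.756 (0.743 to 0.770). The highest were Tyrobp (317 FPKM in WT against 219 FPKM in KO), C1qc (278 FPKM in WT against 208 FPKM in KO) and C1qb (250.2 FPKM in WT against 198 FPKM in KO), while the microglial receptor Cx3cr1 had a ratio of 1.05 (0.951 to 1.15). Csf1r (0.923), P2ry12 (0.922) and Tmem119 (0.961) were also closer to 1 than the sum. The summed ratio of these markers lay between those of the class I heavy chains (0.702) and the class II chains (0.790). That of the class II peptide handling genes was 0.751. The counting interval of the class I heavy chains was 0.672 to 0.734, and without the row of H2-D1 their summed ratio was 0.749. B2m (1.48) and the peptide supply and loading genes (summed ratio 0.957, with Erap1 counted in KO only) lay above these summed ratios. The part of microglia and macrophages in the differences of antigen presentation genes was not tested.

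Of 7 fibroblast and pericyte markers, 5 were listed, with Pdgfrb and Kcnj8 in neither library and Lum in WT only, and the 4 that could be compared were all below 2/3. Their summed FPKM was 525 in WT against 276 in KO, led by Col1a1 (420.5 FPKM in WT against 237 FPKM in KO), Col1a2 and Dcn. Astrocyte markers summed to 313 and 358 FPKM, with 4 of 9 above 3/2, and oligodendrocyte lineage markers to 86.3 and 127 FPKM, with 4 of 7 above 3/2. The neuronal list summed to 81.7 and 104 FPKM, nearly all from Tubb3 (44.7 FPKM in WT against 59.8 FPKM in KO) and Stmn2. The endothelial list summed to 59.0 and 52.1 FPKM, although 5 of its 7 compared genes were higher in β-arr1 KO, 2 of them above 3/2. The highest of this list in both libraries, Cdh5, was its only gene below 2/3 (31.8 FPKM in WT against 16.1 FPKM in KO, ratio 0.507). The T cell markers Cd3e, Cd3g, Cd3d and Cd2 were listed in neither library. The B cell markers summed to 0.918 and 0.342 FPKM, with Ms4a1 in neither library, and the dendritic cell markers to 2.74 and 3.65 FPKM, with Flt3 in neither. The part of these cell types in the differences of antigen presentation genes was not tested.

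**Figure D5:**
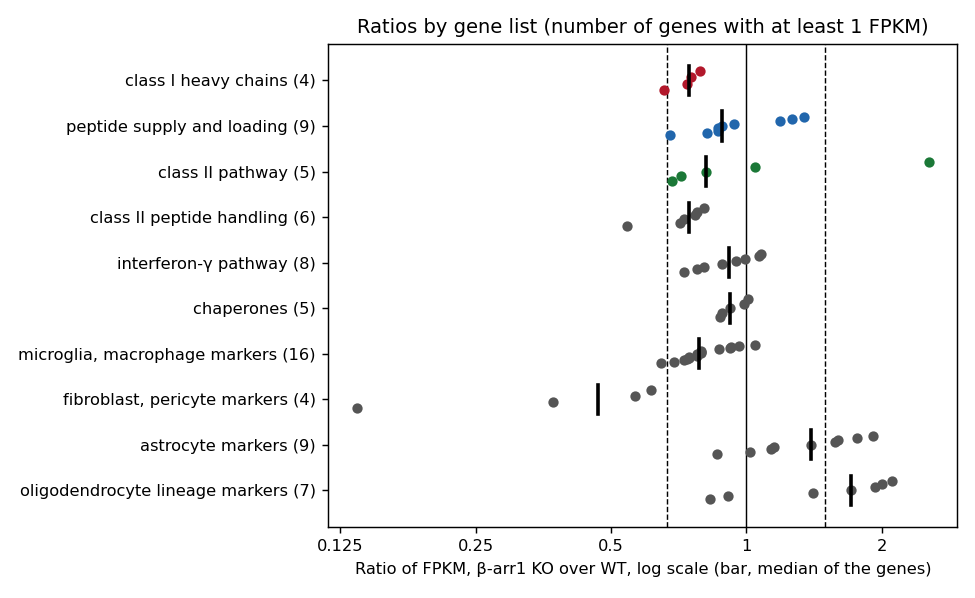
Ratio of FPKM, β-arr1 KO over WT, on a log axis for the genes of each list with 1 FPKM or more in either library (1 point per gene, number of genes in brackets, bar at the median of the genes, dashed lines at 2/3 and 3/2). The class I heavy chains, the class II peptide handling genes and most microglia and macrophage markers lie left of 1, fibroblast and pericyte markers lie farther left, and most astrocyte and oligodendrocyte lineage markers lie right of 1.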

How the data were processed

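RNA of cultured DG astrocytes was sequenced in 1 WT and 1 β-arr1 KO library, grouped by the genotype in the sample labels. The authors aligned paired reads to mm9 with TopHat (1.4.0 in the submitters' processing notes), ran Cufflinks (version and annotation not given in the sources used here) and deposited FPKM values, 1 per gene row, above 0 only. Rows were joined by symbol, with the highest row of a symbol, and 1 was added to each start to match the NCBIM37 annotation. Genes listed in both tables that reached 1 FPKM in either library were compared by the ratio KO/WT, without pseudocount, and medians used log2((KO + 0.1)/(WT + 0.1)). No test or p-value was possible. Every gene of the rule at 1 FPKM or more is named, as are other antigen presentation genes past a limit, Psmb5 to Psmb7 and leading markers. Further genes of these lists were chosen after their values were seen, and all genes and lists were chosen with earlier results of these data known.

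Depth was estimated from single-transcript genes under 0.15 FPKM and over 1000 bases, less an allowance of 170 bases. Of 416 such genes in WT and 435 in KO, 69.2% and 69.9% lay within 5% of 1, 2 or 3 fragments, against 13.1% and 13.2% after shuffling. Fragments of a gene were estimated with its longest transcript. Reads carry no molecular identifiers, so intervals hold counting error only and do not cover how reads were divided between like genes. The computation was tested on simulated data under Python 3.11.15 with pandas 2.3.3, numpy 2.4.6, matplotlib 3.10.9 and scipy 1.17.1.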

Additional observations from a re-analysis of the deposited data

How the results depend on the processing

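Alternatives changed the minimum level, the pseudocount, the scale of the libraries, the limits and the handling of rows. No paired analysis was possible because each genotype has 1 library, and for the same reason no library could be left out. The count of all genes past a limit was 1781. It was 2826 at a minimum of 0.1 FPKM, 927 at 5 FPKM, 2976 with no minimum, 1172 with a pseudocount of 1, 688 with limits of 2 and 1/2, and 1015 with genes of the same bounds in both tables. For class I heavy chains the count of 1 became 0 with limits of 2 and 1/2 and with the same bounds, where the start of the H2-D1 row differs by 1 base. For peptide supply and loading genes the count of 0 became 1 when genes listed once counted (Erap1) and on rescaling to a median ratio of 1 or to the same upper quartile (Psmb8, at 0.666 and 0.663). For class II the count of 1 became 2 at a minimum of 0.1 FPKM and with no minimum, and 0 at 5 FPKM. For other antigen presentation genes the count of 4 became 2 with a pseudocount of 1 and with the same bounds, and 0 with limits of 2 and 1/2. Without H2-D1 the summed class I heavy chain ratio of 0.702 was 0.749. Without Psmb10 the summed immunoproteasome ratio of 1.02 turned to 0.826, and at a minimum of 0.1 FPKM the class II median log2 ratio of -0.29 turned to 0.0168. With a pseudocount of 1 the Arrb1 ratio of 0.358 was 0.432. Of 184 alternatives for single antigen presentation genes, 181 left the gene on the same side of the limits, and the exceptions were Psmb8 under both rescalings and Nlrc5, at 0.700 with a pseudocount of 1. Beyond these effects of how each alternative is built, the cause was not tested. For H2-Eb1, H2-Ab1, Cd74, H2-DMa, H2-M3 and Psme2, with 5 to 71 estimated fragments in WT, the counting interval included 1, and a difference was not detectable at this depth.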

Other observations

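Most of the MHC genes lie in 1 region of chromosome 17, which runs from Tapbp to H2-M3 and also holds many genes without a part in antigen presentation. Of the antigen presentation genes in this region, 13 could be compared, 11 were lower in β-arr1 KO and the median log2 ratio was -0.33. Of the other genes in the same region, H2-Ke2 and H2-Ke6 included, 74 could be compared, 34 were lower and the median log2 ratio was 0.02. Of these others, 5 were below 2/3 and 5 above 3/2, against 14.6% past a limit over all genes. Those below were Tnxb, which encodes the matrix protein tenascin-X (3.60 FPKM in WT against 0.850 FPKM in KO, ratio 0.236), the heat shock gene Hspa1a (11.5 FPKM in WT against 3.62 FPKM in KO, ratio 0.314), Cdsn (5.29 FPKM in WT against 1.65 FPKM in KO, ratio 0.312), Vwa7 and Gm7030, a class I-like gene inside the H2-T22 row of WT. Those above were Rnf39 (0.329 FPKM in WT against 1.20 FPKM in KO, ratio 3.64), the proton pump subunit Atp6v1g2 (1.74 FPKM in WT against 4.15 FPKM in KO, ratio 2.38), 2310061I04Rik, the collagen gene Col11a2 and Prrt1. The ratio of Rnf39 rested on about 4 and 17 fragments, with an interval of 1.19 to 14.9. With the shortest coding transcript, the intervals of Rnf39 (0.292 to 191) and Atp6v1g2 (0.797 to 8.54) included 1. That of Gm7030 (0.0738 to 1.94) included 1 with the longest transcript too. The rows of Tnxb, Hspa1a, Vwa7, Col11a2 and Prrt1 had different bounds in the 2 libraries. The Hspa1a row started at position 35093374 in WT and at 35106304 in KO, and Hspa1b was listed in KO only. The ratio of Hspa1a may therefore set a row over more than 1 gene in WT against a single gene in KO. The region and the comparison were chosen after the values of the antigen presentation genes had been seen.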
